A study of Mus musculus with 10 samples.

Results

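The 48 genes described here encode proteins of the lysosome: 11 cathepsins, 5 other peptidases, phosphatases and progranulin, 11 glycosidases, 5 sulfatases or their activator, 8 lipid enzymes or lipid carriers, and 8 membrane proteins. They were taken by name, not by a threshold on their values, out of 46517 genes counted in RNA from mouse kidney. Each of the 48 was found in the count tables under its mouse symbol, and each passed the filter on low counts. Kidneys of mice that express variants of human APOL1 in podocytes, which wrap the capillaries of the glomerulus, were compared with reference kidneys. The genotype labels give 4 groups, namely Control (n = 3), the risk alleles G1 (G1-APOL1, n = 2) and G2 (G2-APOL1, n = 2), and wild type (single mutant) with 3 libraries. The sources used here give neither the meaning of single mutant nor the promoter or inducer of the transgene, the strain, or the sex and age of the mice. Nor is it stated that libraries of a group are separate mice, so a p-value measures the spread between these libraries, which may be technical in part. The human APOL1 transcript was not analysed here, and the genotype labels were therefore not checked against it.

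Lysosomes are acidic, membrane-bound compartments that digest what a cell takes up by endocytosis or encloses by autophagy. Their soluble hydrolases are made in the endoplasmic reticulum, tagged with mannose 6-phosphate and sorted to the organelle, where a proton pump, the V-ATPase, keeps the pH low. In kidney the proximal tubule, which takes up filtered protein, is rich in lysosomes, and so are macrophages. Many lysosomal genes carry in their promoters a sequence bound by the transcription factors TFEB and TFE3, built around the E-box core CACGTG.

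Promoter sequences are shown first because that E-box is a sequence feature that many of the 48 genes share. RefSeq promoter windows on GRCm38.p6, from 250 bases before to 50 bases after a transcription start, were found for 43 of the 48 genes. There was no entry for Ctsb, Ctsh, Asah1, Npc1 and Laptm4b. The core CACGTG, which reads the same on both strands, occurred in the windows of 15 of the 43 genes (34.9%), against 8.09% of all 27025 genes with a window. The sequences printed stop before the first base that RefSeq or GENCODE annotates as transcribed in that gene, and capitals mark CACGTG in the first 4 and ACTTCCTC, the reverse strand of GAGGAAGT, in the last. Arsa, whose RNA rose with the risk alleles, lies at chr15:89477426-89477674 on the minus strand. Lamp1 at chr8:13158911-13159160 and Glb1 at chr9:114400828-114401075, both on the plus strand, belong to genes that fell. Sumf1 at chr6:108185584-108185833 on the minus strand belongs to a gene that was not called. Ctsc at chr7:88277835-88278084 on the plus strand belongs to the cathepsin gene with the lowest p, and its window holds no CACGTG.
Arsa: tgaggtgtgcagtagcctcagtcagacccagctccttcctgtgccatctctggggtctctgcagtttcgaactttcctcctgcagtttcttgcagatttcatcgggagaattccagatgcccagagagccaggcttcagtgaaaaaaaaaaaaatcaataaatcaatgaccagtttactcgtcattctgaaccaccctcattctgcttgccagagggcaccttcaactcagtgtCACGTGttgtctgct
Lamp1: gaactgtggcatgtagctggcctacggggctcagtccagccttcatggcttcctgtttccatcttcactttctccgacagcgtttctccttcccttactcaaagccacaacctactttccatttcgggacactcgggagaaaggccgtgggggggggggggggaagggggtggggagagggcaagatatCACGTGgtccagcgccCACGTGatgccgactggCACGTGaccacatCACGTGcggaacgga
Glb1: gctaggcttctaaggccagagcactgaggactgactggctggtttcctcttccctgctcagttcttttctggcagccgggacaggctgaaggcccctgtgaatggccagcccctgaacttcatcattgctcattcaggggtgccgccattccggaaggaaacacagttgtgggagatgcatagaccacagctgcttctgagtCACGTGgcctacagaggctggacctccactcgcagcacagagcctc
Sumf1: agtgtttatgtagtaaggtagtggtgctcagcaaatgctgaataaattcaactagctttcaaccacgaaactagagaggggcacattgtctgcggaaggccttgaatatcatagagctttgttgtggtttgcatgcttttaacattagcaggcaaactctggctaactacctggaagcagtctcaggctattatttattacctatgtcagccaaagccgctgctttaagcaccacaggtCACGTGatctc
Ctsc: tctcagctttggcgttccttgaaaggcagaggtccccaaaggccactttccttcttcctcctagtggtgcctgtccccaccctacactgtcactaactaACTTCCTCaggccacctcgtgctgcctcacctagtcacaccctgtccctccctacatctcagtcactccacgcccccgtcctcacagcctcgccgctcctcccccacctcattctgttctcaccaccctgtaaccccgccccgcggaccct

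A total of 10 motifs were searched on both strands, some of them nested in others. Windows with the longer forms were TCACGTG in 30.2% of the 43 genes against 4.29% of all genes, GTCACGTG in 27.9% against 2.55%, TCACGTGA in 14.0% against 1.12%, and the palindrome made of GTCAC and GTGAC in 2.33% against 0.37%. The remaining motifs do not contain the E-box, though GAGGAAGT and GGAAGTG can overlap each other. GAGGAAGT, a purine-rich core of the kind that PU.1 binds, was in 4 windows (Ctsc, Ctss, Gla and Gusb; 9.3% against 3.69%), and the related GGAAGTG was in 9.3% against 12.5%. TGANTCA, the AP-1 core, was in 9.3% against 8.97%, TATAAA in 9.3% against 15.7%, and CCAAT in 41.9% against 41.1%. The windows of the 43 genes had a median GC content of 56.3%, against 52.7% over all windows, so base composition differs as well. In the comparison described next, the 15 genes with CACGTG divided into 3 that rose (Arsa, Ctsd, Ctsl), 5 that fell (Ctsf, Gaa, Glb1, Lamp1, Mcoln1) and 7 that were not called (Cln3, Ctsa, Gla, Lgmn, Naglu, Sgsh, Sumf1). Holding the motif therefore went with no single direction among these genes. A match describes letters in a window and says nothing on binding in these kidneys.

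**Figure D1:**
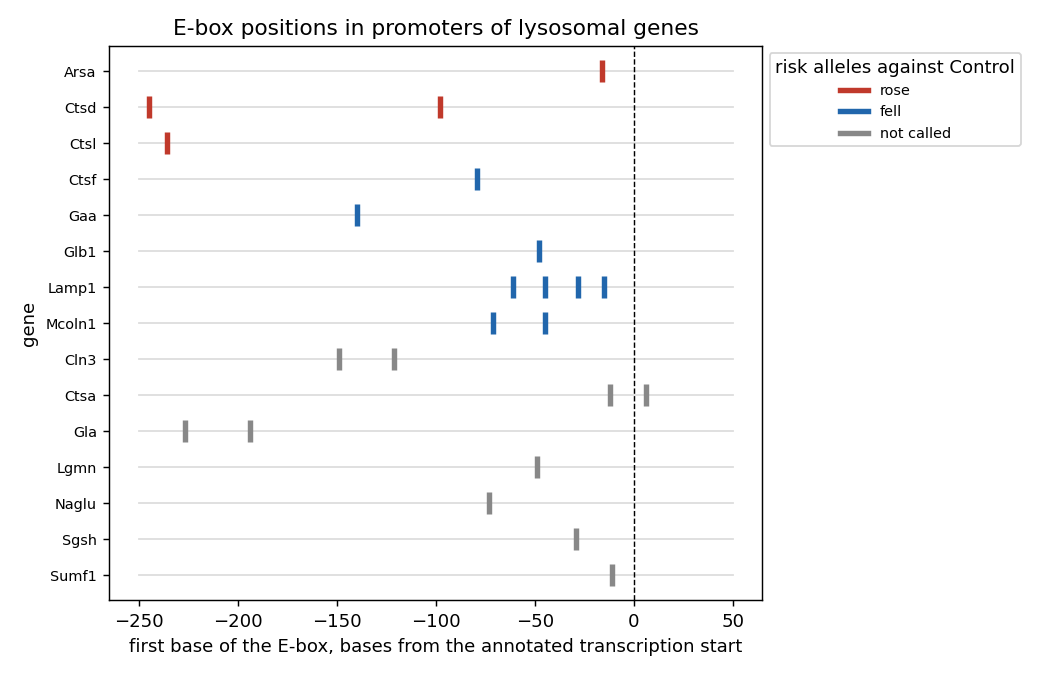
Position of each CACGTG in the RefSeq promoter windows of the 15 lysosomal genes that hold one. The x axis gives the first base of the match relative to the annotated start (dashed line, in bases), 1 row stands for 1 gene, and colour gives the call of risk alleles against Control: 3 genes rose, 5 fell and 7 were not called. Lamp1 has 4 matches, at 61, 45, 28 and 15 bases before its start.

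The main comparison asked how the 4 libraries with a risk allele differed from the 3 Control libraries, with G1 and G2 weighing equally. Libraries held 27596391 to 34815153 counts, and 1.23% to 1.295% of the counts of a Control library fell in the 48 genes, against 2.004% and 1.88% in G1 and 1.494% and 1.308% in G2. Levels are given in CPM, counts brought to a common library size, with sizes scaled by TMM, a method that sets the typical gene to no change. The reference libraries did not group by label: by the chi-square of their counts, each of the 6 was closest to a library of the other reference group, the closest pair being wild type (single mutant) replicate 2 and Control replicate 3 (28.57 per gene). A gene is said to have risen or fallen where its adjusted p in the edgeR quasi-likelihood test over 17823 genes was under 0.05. Of the 48 genes, 10 rose, 12 fell and 26 were not called, while 19.3% of all genes tested rose and 18% fell. The share of members called in each direction (20.8% and 25.0%) was thus near that of all genes. The median log2 fold change of the 48 was -0.03, with a range from -1.83 to 2.39, and the median over all genes was 0.00. In 11 genes the 4 risk allele libraries all lay above the 6 reference libraries, in 13 all lay below, and in 24 the libraries overlapped. The share of all genes tested that separate in this way is not given here, so these counts describe no trait particular to the 48. Scaling decides part of this balance: on library totals alone the median of all genes moves up by 0.28, and 19 of the 48 then rose and 6 fell. The shares of all genes given above are on the TMM scale. They cannot be set beside counts on library totals, here or below, where the rising share of all genes is not given. What follows is relative to the TMM scale.

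**Figure D2:**
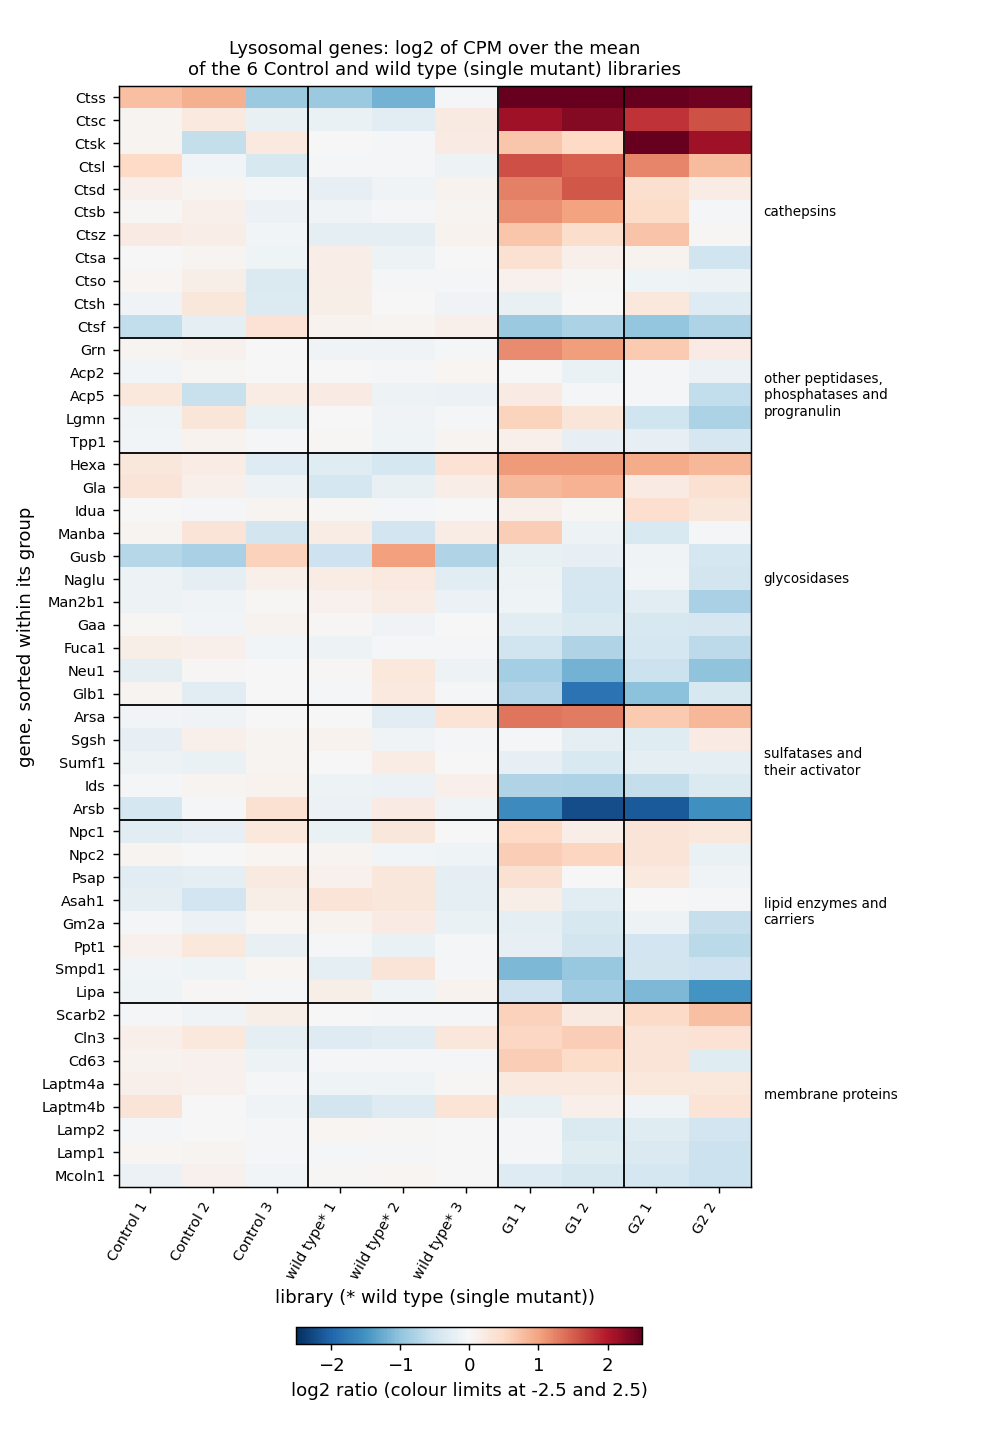
Level of each of the 48 genes in each of the 10 libraries, as log2 of its CPM over the mean of the 6 Control and wild type (single mutant) libraries. Rows are genes sorted within the 6 groups by their difference from Control, columns are libraries, red is above and blue below that mean, and colours stop at -2.5 and 2.5. The rise of Ctss, Ctsc and Ctsl and the fall of Arsb and Lipa appear in all 4 risk allele libraries, and Ctsk is highest in G2.

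The 48 genes span a wide range of levels. Per kilobase of annotated exon, the highest mean levels in Control were those of Psap (671 CPM per kilobase), Lamp1 (602), Lgmn (452), Ctsd (333) and Cd63 (296), and the lowest were those of Gla (2.14), Ctsk (2.66), Npc1 (2.76), Idua (2.81) and Ctsc (3.08). Genes with low counts are as a rule less precise, yet Ctsc and Ctsk are among those with large changes. Because no source states whether counting used strand, reads from a gene on the opposite strand may be counted in a member. This touches Idua, whose 4002 counts over all libraries lie within reach of 45862 counts of Slc26a1 on the other strand, and Ppt1, beside Cap1 (63069 counts against 37508 for Ppt1).

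Cathepsins are the peptidases of the lysosome, most of them cysteine proteases, and most of those called were higher with the risk alleles. Of the 11 genes, 6 rose (Ctsc, Ctss, Ctsk, Ctsl, Ctsd and Ctsb), 1 fell (Ctsf) and 4 were not called. Their median log2 fold change was 0.64. The summed level of the 11 was 2549 to 3032 CPM in Control, 2659 to 2857 in wild type (single mutant), 5805 and 5866 in G1, and 3041 and 4076 in G2.

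Ctsc (chromosome 7, 88278085 to 88310888) encodes cathepsin C, the dipeptidyl peptidase that activates granule serine proteases of immune cells. Its level was 18, 20.4 and 15.2 CPM in the Control libraries, 15.3, 14.4 and 20.3 in wild type (single mutant), 74.9 and 84.3 in G1, and 60.8 and 52.1 in G2. The 4 risk allele libraries lay well above the 6 others, and the gene rose 3.75-fold (log2 1.91 ± 0.15 SE, adjusted p = 8.41e-05). Ctss (chromosome 3, 95526786 to 95556403), a protease of antigen processing in antigen-presenting cells, had the largest fold of the 48 genes. It stood at 24.8, 27.1 and 7.72 CPM in Control, 7.73, 6.47 and 14.3 in wild type (single mutant), 104 and 111 in G1, and 123 and 79.0 in G2. The groups did not overlap, although the reference libraries themselves spread widely, and the log2 fold change was 2.39 ± 0.45 (adjusted p = 0.00347).

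Ctsk (chromosome 3, 95499256 to 95509362) encodes the collagen-degrading cathepsin K, best known from osteoclasts. Control libraries held 4.37, 2.75 and 4.93 CPM, wild type (single mutant) 4.14, 4.02 and 4.80, G1 6.71 and 5.90, and G2 23.4 and 18. All 4 risk allele libraries exceeded the 6 others, with G2 far above G1, and the mean log2 fold change was 1.51 ± 0.22 (adjusted p = 0.000964). Ctsd (chromosome 7, 142375911 to 142388038) encodes cathepsin D, the main aspartic protease of the organelle. Its levels were 823, 788 and 736 CPM in Control, 649, 711 and 797 in wild type (single mutant), 1802 and 2203 in G1, and 985 and 859 in G2. The risk allele libraries again lay above all others, G2 by a small margin, and the log2 fold change was 0.80 ± 0.12 (adjusted p = 0.00138).

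Ctsl and Ctsb encode the broadly expressed cysteine proteases cathepsin L and B. Ctsl rose by 1.22 ± 0.21 on the log2 scale (adjusted p = 0.00207), from 247 to 461 CPM in Control and 297 to 317 in wild type (single mutant) to 910 and 993 in G1 and 565 and 756 in G2. Ctsb held 798, 854 and 708 CPM in Control, 735, 770 and 821 in wild type (single mutant), 1727 and 1570 in G1, and 1071 and 752 in G2. G2 overlapped the reference libraries and G1 did not, and the gene rose by 0.64 ± 0.14 (adjusted p = 0.00724). Ctsf (chromosome 19, 4855130 to 4860918), another cysteine cathepsin, was the member that fell. It held 40.7, 52.6 and 80.1 CPM in Control, 66.2, 65.2 and 68.3 in wild type (single mutant), 32.9 and 36.0 in G1, and 31.8 and 36.5 in G2. No risk allele library reached the lowest reference library, the log2 fold change was -0.75 ± 0.19 (adjusted p = 0.015), and on library totals alone it was -0.47 with an adjusted p of 0.0813.

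Among the 4 cathepsins that were not called, Ctsz, a carboxypeptidase, had a log2 fold change of 0.39 ± 0.17 (adjusted p = 0.107). Values for Ctsa, the serine carboxypeptidase that protects beta-galactosidase and neuraminidase in a complex, and for Ctsh and Ctso lay between -0.03 and 0.05. Markers of macrophages, which are rich in several of these proteases, are given beside the 6 cathepsin genes that rose. Of 18 macrophage markers, 17 rose, and their summed level was 188 to 292 CPM in Control, 175 to 220 in wild type (single mutant), 915 and 1165 in G1, and 882 and 1358 in G2. Adgre1, which encodes F4/80, rose by 1.44 ± 0.32 (adjusted p = 0.00746) and Csf1r by 0.66 ± 0.14 (adjusted p = 0.0064); none of the 18 markers was at 0 in all libraries. Their part in the cathepsin result was not tested. In bulk tissue, more or fewer cells of a type and more or less RNA per cell cannot be told apart.

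**Figure D3:**
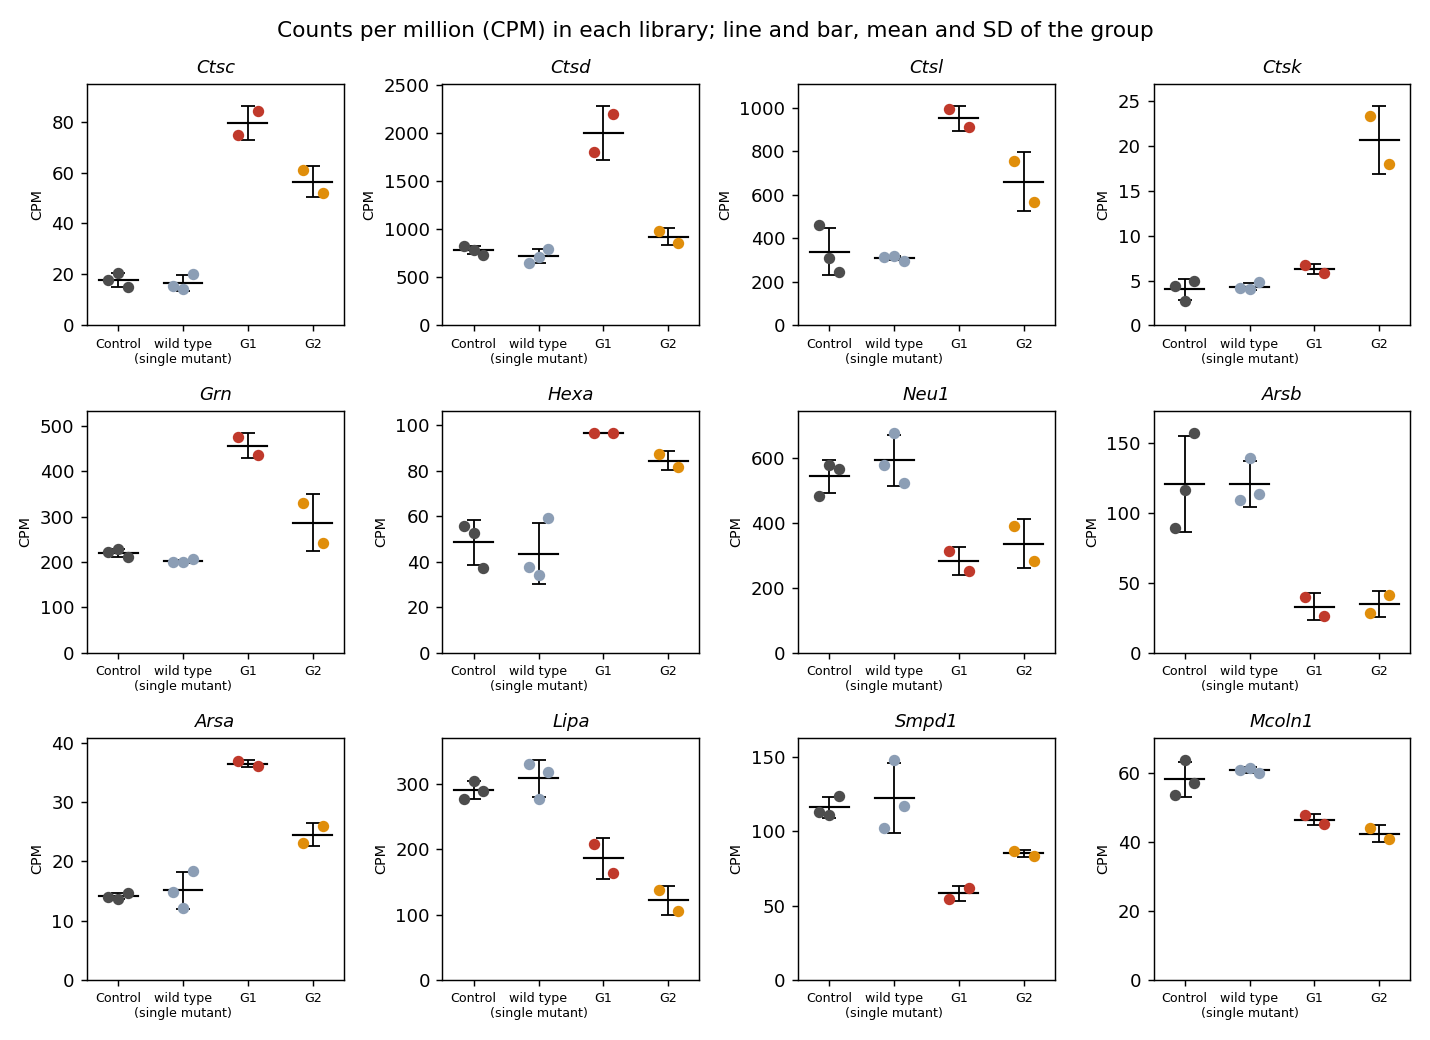
Level in CPM (y axis, from 0) of 12 lysosomal genes in each library, by group on the x axis; 1 point is 1 library, and the line and bar give the mean and SD of the group (n = 3, 3, 2 and 2 from left to right). Ctsc, Ctsl, Grn, Hexa and Arsa lie higher in all 4 risk allele libraries than in the 6 others, and Neu1, Arsb, Lipa, Smpd1 and Mcoln1 lie lower.

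Of the 5 other peptidases, phosphatases and progranulin, 1 rose, none fell in the edgeR test, in DESeq2 or in limma-voom (0 at an unadjusted p under 0.05 as well), and 4 were not called. Grn (chromosome 11, 102430315 to 102437048) encodes progranulin, a secreted and lysosomal precursor that cathepsins cut into granulins. Its level was 222, 228 and 210 CPM in Control, 199, 199 and 206 in wild type (single mutant), 477 and 437 in G1, and 331 and 243 in G2. Both risk alleles lay above every reference library, G1 more so, and the log2 fold change was 0.72 ± 0.11 (adjusted p = 0.00146). The tripeptidyl peptidase gene Tpp1 had 251, 280 and 257 CPM in Control, 267, 244 and 275 in wild type (single mutant), 285 and 229 in G1, and 229 and 196 in G2. These libraries overlapped, and the difference of -0.17 ± 0.11 missed the threshold (adjusted p = 0.242).

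Acp2, the lysosomal acid phosphatase, held 44.8, 47.6 and 47.3 CPM in Control, 47.0, 45.2 and 48.6 in wild type (single mutant), 46.8 and 41.9 in G1, and 45.6 and 42.2 in G2. All groups overlapped, and the log2 fold change was -0.08 ± 0.08 (adjusted p = 0.447). Acp5, the tartrate-resistant acid phosphatase, ranged from 81.2 to 150 CPM over all 10 libraries without order by group (log2 -0.12 ± 0.21). Lgmn, the asparaginyl endopeptidase that processes cathepsins, differed from Control by -0.14 ± 0.14 in the mean of both alleles, a mean over alleles that moved apart, as given below.

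Glycosidases, which take sugars off glycoproteins, glycolipids and glycosaminoglycans, were called lower more often than higher on the TMM scale. Of the 11 genes, 1 rose (Hexa), 4 fell (Fuca1, Neu1, Gaa and Glb1) and 6 were not called, with a median log2 fold change of -0.19. Their summed level was 1596 to 1685 CPM in Control, 1579 to 1883 in wild type (single mutant), 1302 and 1037 in G1, and 1275 and 1113 in G2, so no risk allele library reached a reference library. On library totals alone the median was 0.08, with 3 that rose (Gla, Hexa and Idua) and 2 that fell (Fuca1 and Neu1). The median of all genes also moves up on that scale, as given above. The glycosidase median stayed below it.

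Fuca1 (chromosome 4, 135920735 to 135940311) encodes the alpha-fucosidase. Its levels were 338, 334 and 294 CPM in Control, 281, 300 and 297 in wild type (single mutant), 218 and 182 in G1, and 228 and 195 in G2. The groups did not overlap and the log2 fold change was -0.65 ± 0.10 (adjusted p = 0.00143). Neu1 (chromosome 17, 34931253 to 34935953), the lysosomal sialidase, fell by 0.82 ± 0.15 on the log2 scale (adjusted p = 0.00309). It held 484, 579 and 567 CPM in Control, 579, 678 and 522 in wild type (single mutant), 314 and 252 in G1, and 389 and 284 in G2. Gaa, the acid alpha-glucosidase of glycogen breakdown, fell by less: 125, 116 and 130 CPM in Control, 124, 114 and 121 in wild type (single mutant), 102 and 94.5 in G1, and 92.4 and 90.9 in G2. Its log2 fold change was -0.39 ± 0.07 (adjusted p = 0.00398), and -0.11 with an adjusted p of 0.291 on library totals alone.

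Glb1, the beta-galactosidase, fell by 0.86 ± 0.25 (adjusted p = 0.0264), but its G1 libraries were far apart (112 and 51.6 CPM, against 153 to 195 in Control and 91.8 and 142 in G2). The call was lost without Control replicate 1 (adjusted p = 0.0812), without Control replicate 3 (0.0699), without G2 replicate 1 (0.0763) and on library totals alone (0.0888). Its neighbour Tmppe lies within its bounds on the same strand and shares part of it, so reads could be divided between them.

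Hexa (chromosome 9, 59539540 to 59565109) encodes the alpha subunit of beta-hexosaminidase and went against its group. Its level was 55.7, 52.6 and 37.0 CPM in Control, 37.5, 34.0 and 59.1 in wild type (single mutant), 96.5 and 96.6 in G1, and 87.4 and 81.4 in G2. Within the reference libraries, wild type (single mutant) replicates 1 and 2 and Control replicate 3 were the low ones. All 4 risk allele libraries lay above the others, a log2 fold change of 0.90 ± 0.21 (adjusted p = 0.00937).

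Of the 6 glycosidases that were not called, the alpha-galactosidase gene Gla had a log2 fold change of 0.45 ± 0.18 (adjusted p = 0.0775), the alpha-mannosidase gene Man2b1 -0.33 ± 0.14 (0.0978) and the iduronidase gene Idua 0.21 ± 0.10 (0.126). Naglu, Manba and Gusb lay between -0.19 and 0.04. Gusb, the beta-glucuronidase gene, singled out after its values were seen, held 141 CPM in wild type (single mutant) replicate 2 and 104 in Control replicate 3 but 39.7 to 65.0 in the other 8 libraries. The high libraries thus belong to both reference groups, and the SE of its log2 fold change, 0.47, is the largest of the 48 genes.

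Proximal tubule markers are given beside the 4 glycosidases that fell. Each of 16 such markers fell, and their sum was 28290 to 29803 CPM in Control, 28035 to 31137 in wild type (single mutant), 10596 and 8430 in G1, and 13240 and 12181 in G2. Slc34a1, the main phosphate transporter of that segment, fell by 1.84 ± 0.14 on the log2 scale (adjusted p = 7.94e-05), and Slc34a3 by 1.82 ± 0.20 (0.000292). The part of these cells in the results on glycosidases, sulfatases and lipid enzymes was not tested.

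Sulfatases remove sulfate from glycosaminoglycans and sulfolipids, and their members moved apart. Of the 5 genes, 1 rose (Arsa), 2 fell (Arsb and Ids) and 2 were not called (Sgsh and Sumf1), with a median of -0.19 that became 0.08 on library totals alone while the same 3 genes were called. Arsb (chromosome 13, 93771630 to 93943016), which acts on dermatan and chondroitin sulfate, had the largest fall of the 48 genes. It held 88.7, 116 and 157 CPM in Control, 109, 139 and 113 in wild type (single mutant), 39.8 and 26.0 in G1, and 28.2 and 41.5 in G2. The risk allele libraries lay far below all others (log2 -1.83 ± 0.23, adjusted p = 0.000518), a level of 0.281 times Control.

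Arsa (chromosome 15, 89472476 to 89477425) encodes arylsulfatase A, which acts on sulfatides. Its levels were 14.0, 13.7 and 14.7 CPM in Control, 14.8, 12.1 and 18.4 in wild type (single mutant), 36.9 and 36.0 in G1, and 23.1 and 25.9 in G2. The groups did not overlap and the gene rose 2.12-fold (log2 1.08 ± 0.14, adjusted p = 0.00058). The iduronate sulfatase gene Ids, on chromosome X, held 81.8, 88.2 and 89.3 CPM in Control, 76.4, 75.3 and 92.0 in wild type (single mutant), 49.5 and 49.4 in G1, and 55.7 and 65.1 in G2. It was lower in every risk allele library (log2 -0.66 ± 0.10, adjusted p = 0.00105). Sumf1 makes the formylglycine that all sulfatases need. Its 4 risk allele libraries (54.0 to 61.2 CPM) lay below the 6 others (62.9 to 80.4), but the log2 fold change of -0.19 ± 0.09 missed the threshold (adjusted p = 0.131). Sgsh, the heparan sulfamidase gene, differed by -0.09 ± 0.14.

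Lipid enzymes and carriers break down or bind cholesteryl esters, sphingolipids and lipid-modified proteins. Of the 8 genes, none rose in the edgeR test, DESeq2 or limma-voom (1, Npc2, at an unadjusted p under 0.05), 3 fell (Lipa, Smpd1 and Ppt1) and 5 were not called. The median was -0.08, and on library totals alone it was 0.19, with Npc1, Npc2 and Psap rising and Lipa and Smpd1 falling. The summed level of the 8, to which Psap gives the largest part, overlapped between all groups (2594 to 3598 CPM over the 10 libraries).

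Lipa (chromosome 19, 34492318 to 34527474) encodes the acid lipase that frees cholesterol and fatty acids. Control libraries held 277, 304 and 290 CPM, wild type (single mutant) 331, 277 and 318, G1 208 and 164, and G2 137 and 106. Both alleles lay below all reference libraries (log2 -0.95 ± 0.12, adjusted p = 0.000601). The acid sphingomyelinase gene Smpd1 held 113, 111 and 124 CPM in Control, 102, 148 and 117 in wild type (single mutant), 54.7 and 61.5 in G1, and 86.6 and 83.6 in G2. It too showed no overlap (log2 -0.72 ± 0.12, adjusted p = 0.00227), with the lower values in G1. Ppt1, which takes palmitate off proteins, held 146, 162 and 119 CPM in Control, 130, 121 and 133 in wild type (single mutant), 117 and 98.9 in G1, and 97.3 and 85.1 in G2. Its log2 fold change of -0.52 ± 0.12 (adjusted p = 0.00865) became -0.25 with an adjusted p of 0.123 on library totals alone, and it shares ground with Cap1 as given above.

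The genes whose products export cholesterol from the lysosome, Npc1 and Npc2, had log2 fold changes of 0.37 ± 0.16 (adjusted p = 0.107) and 0.31 ± 0.12 (0.0601). Psap, the precursor of the saposins, differed by 0.22 ± 0.19, the acid ceramidase gene Asah1 by 0.12 ± 0.19 and the GM2 activator gene Gm2a by -0.28 ± 0.13 (adjusted p = 0.125). These 5 were not called, and their libraries overlapped with Control.

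Membrane proteins carry the structure, channels and transport of the lysosome, and their differences were small. Of the 8 genes, 1 rose (Scarb2), 2 fell (Mcoln1 and Lamp1) and 5 were not called. The median was 0.08, and on library totals alone 0.36, with 4 that rose (Cd63, Cln3, Laptm4a and Scarb2) and 0 that fell. Mcoln1 (chromosome 8, 3500457 to 3515232) encodes the calcium-permeable channel mucolipin. It held 53.6, 63.8 and 57.0 CPM in Control, 61.0, 61.6 and 60.1 in wild type (single mutant), 47.7 and 45.3 in G1, and 44.1 and 40.8 in G2. The groups did not overlap (log2 -0.39 ± 0.08, adjusted p = 0.00568), but on library totals alone the value was -0.12 with an adjusted p of 0.275.

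Scarb2 (chromosome 5, 92441314 to 92506833) encodes the receptor that carries glucocerebrosidase to the lysosome. Its levels were 55.6, 53.2 and 62.9 CPM in Control, 57.0, 55.7 and 54.5 in wild type (single mutant), 84.6 and 65.6 in G1, and 78.8 and 94.5 in G2. All 4 risk allele libraries were higher (log2 0.50 ± 0.11, adjusted p = 0.00897). Lamp1, one of the most abundant lysosomal membrane proteins, held 1630, 1657 and 1547 CPM in Control, 1543, 1530 and 1596 in wild type (single mutant), 1524 and 1279 in G1, and 1232 and 1088 in G2. Its log2 fold change of -0.34 ± 0.11 had an adjusted p of 0.0335, and the call was lost under 9 alternatives, among them library totals alone (-0.07, adjusted p = 0.581) and the left-out G1 replicate 2 (0.123), G2 replicate 2 (0.0823), wild type (single mutant) replicate 1 (0.0571) and Control replicates 1, 2 and 3 (0.0939, 0.0958 and 0.0589).

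Of the 5 membrane protein genes that were not called, Cln3 (23.5, 25.8 and 18.5 CPM in Control, 30.7 and 33.2 in G1, 27.1 and 27.6 in G2) and Laptm4a (378, 373 and 335 CPM in Control, 410 and 410 in G1, 418 and 417 in G2) were higher in all 4 risk allele libraries than in the 6 others. Their log2 fold changes, 0.39 ± 0.17 and 0.19 ± 0.08, each had an adjusted p of 0.101. Lamp2, the partner of Lamp1, differed by -0.26 ± 0.10 (adjusted p = 0.0785), the tetraspanin gene Cd63 by 0.26 ± 0.15 (0.214) and Laptm4b by -0.03 ± 0.21.

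The second reference group, wild type (single mutant), was compared with the same 4 risk allele libraries. Here 15 of the 48 genes rose and 15 fell, against 20.6% and 19.3% of all genes tested, and 18 were not called. This comparison shares its risk allele libraries with the first, so the values are set side by side and not counted as independent. The cathepsins had 7 that rose and 1 that fell, with a log2 fold change of 2.01 ± 0.15 for Ctsc, 3.45 ± 0.47 for Ctss, 1.40 ± 0.22 for Ctsk, 0.92 ± 0.12 for Ctsd and -0.96 ± 0.19 for Ctsf. The glycosidases had 2 that rose and 5 that fell, the sulfatases 1 and 3, the lipid genes 1 and 4, and the membrane proteins 3 and 2. Genes that were called against this group but not against Control were Ctsz (0.61 ± 0.17, adjusted p = 0.0208), Gla (0.70 ± 0.18, 0.0136), Npc2 (0.38 ± 0.12, 0.0284), Cln3 (0.53 ± 0.17, 0.0335) and Laptm4a (0.31 ± 0.08, 0.0186), which rose, and Man2b1 (-0.45 ± 0.14, 0.0338), Sumf1 (-0.33 ± 0.09, 0.0208), Gm2a (-0.38 ± 0.13, 0.0496) and Lamp2 (-0.31 ± 0.10, 0.0428), which fell. Several of these 9 calls were fragile: of 18 alternatives, 12 ended those of Gm2a and Lamp2, 7 that of Npc2, 6 those of Cln3 and Man2b1, 4 those of Sumf1 and Laptm4a, 3 that of Ctsz and 1 that of Gla. Lamp1 was the gene called against Control that was not called here (-0.29 ± 0.11, adjusted p = 0.0568).

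The alleles were then taken one at a time against the same 3 Control libraries, which both comparisons share. With G1, 11 of the 48 genes rose and 10 fell (19.5% and 17.9% of all genes tested). With G2, 7 rose and 10 fell (12.7% and 8.86%). Single libraries moved these counts: with G1, 7 rose without G1 replicate 1 and 3 fell without G1 replicate 2, and with G2, 4 rose without G2 replicate 1 and 4 fell without G2 replicate 2. No gene was called with opposite signs in the alleles. Beside the cathepsins, Gla (0.72 ± 0.21, adjusted p = 0.0244) and Npc2 (0.55 ± 0.14, 0.0124) rose with G1, and had values of 0.17 ± 0.21 and 0.08 ± 0.14 with G2, where they were not called. Both G1 calls were lost without G1 replicate 1 (adjusted p = 0.0903 for Gla and 0.0785 for Npc2) or replicate 2 (0.104 and 0.0566), and that of Gla also without Control replicate 2 (0.0514) or 3 (0.0709). Whether an effect differs between alleles is answered by G2 against G1 itself. In that comparison 1 of the 48 genes rose and 4 fell (3.84% and 2.88% of all genes tested), and 43 were not called. At an unadjusted p under 0.05 there were 12.

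Ctsd and Ctsb were lower in G2 than in G1, by 1.12 ± 0.16 (adjusted p = 0.0113) and 0.86 ± 0.18 (adjusted p = 0.0307) on the log2 scale. For both genes the 2 G1 libraries lay above all 8 others. Against Control, Ctsd had a log2 fold change of 1.36 ± 0.14 with G1 and 0.24 ± 0.14 with G2, and Ctsb 1.07 ± 0.16 and 0.21 ± 0.16. Lgmn (chromosome 12, 102394084 to 102439813) held 965, 1268 and 917 CPM in Control, 1038, 966 and 1009 in wild type (single mutant), 1509 and 1259 in G1, and 730 and 592 in G2. The G2 libraries lay below every other library, and Lgmn was lower in G2 than in G1 by 1.07 ± 0.19 (adjusted p = 0.0199), with 0.40 ± 0.17 for G1 and -0.67 ± 0.18 for G2 against Control. Grn was lower in G2 than in G1 by 0.67 ± 0.15 (adjusted p = 0.0324).

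Ctsk was the gene higher in G2, by 1.71 ± 0.27 (adjusted p = 0.0145), or 3.28-fold. Against Control its log2 fold change was 0.65 ± 0.25 with G1 (adjusted p = 0.0664) and 2.36 ± 0.25 with G2 (0.000752). Markers of fibroblasts summed to 409 to 580 CPM in Control, 444 to 479 in wild type (single mutant), 1128 and 984 in G1, and 2491 and 1785 in G2. Of the 11, 4 rose and 2 fell with G1, 6 rose with G2, and 3 were higher in G2 than in G1 (median 1.21). Col1a1 was at 191 and 133 CPM in G1 and at 469 and 289 in G2, a difference that was not called (1.23 ± 0.35, adjusted p = 0.0696), and Col1a2 was higher in G2 (1.23 ± 0.30, adjusted p = 0.046). Of the endothelial markers 3 of 8, and of the distal nephron and collecting duct markers 3 of 13, were also higher in G2 than in G1. So were 3 of 16 proximal tubule markers, while 2 others of that list were lower, and 1 of 18 macrophage markers. Of 10 tubular injury markers 4 were lower. The part of these cell types in the Ctsk result was not tested. Lipa had the sixth lowest p of this comparison and was not called (-0.62 ± 0.16, adjusted p = 0.0575). Groups of 2 libraries make these calls fragile: each of the 5 was lost when G1 replicate 2 was left out (adjusted p from 0.0759 for Ctsd to 0.115 for Grn), and the other left-out libraries that end a call are given with the sensitivity of the results.

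**Figure D4:**
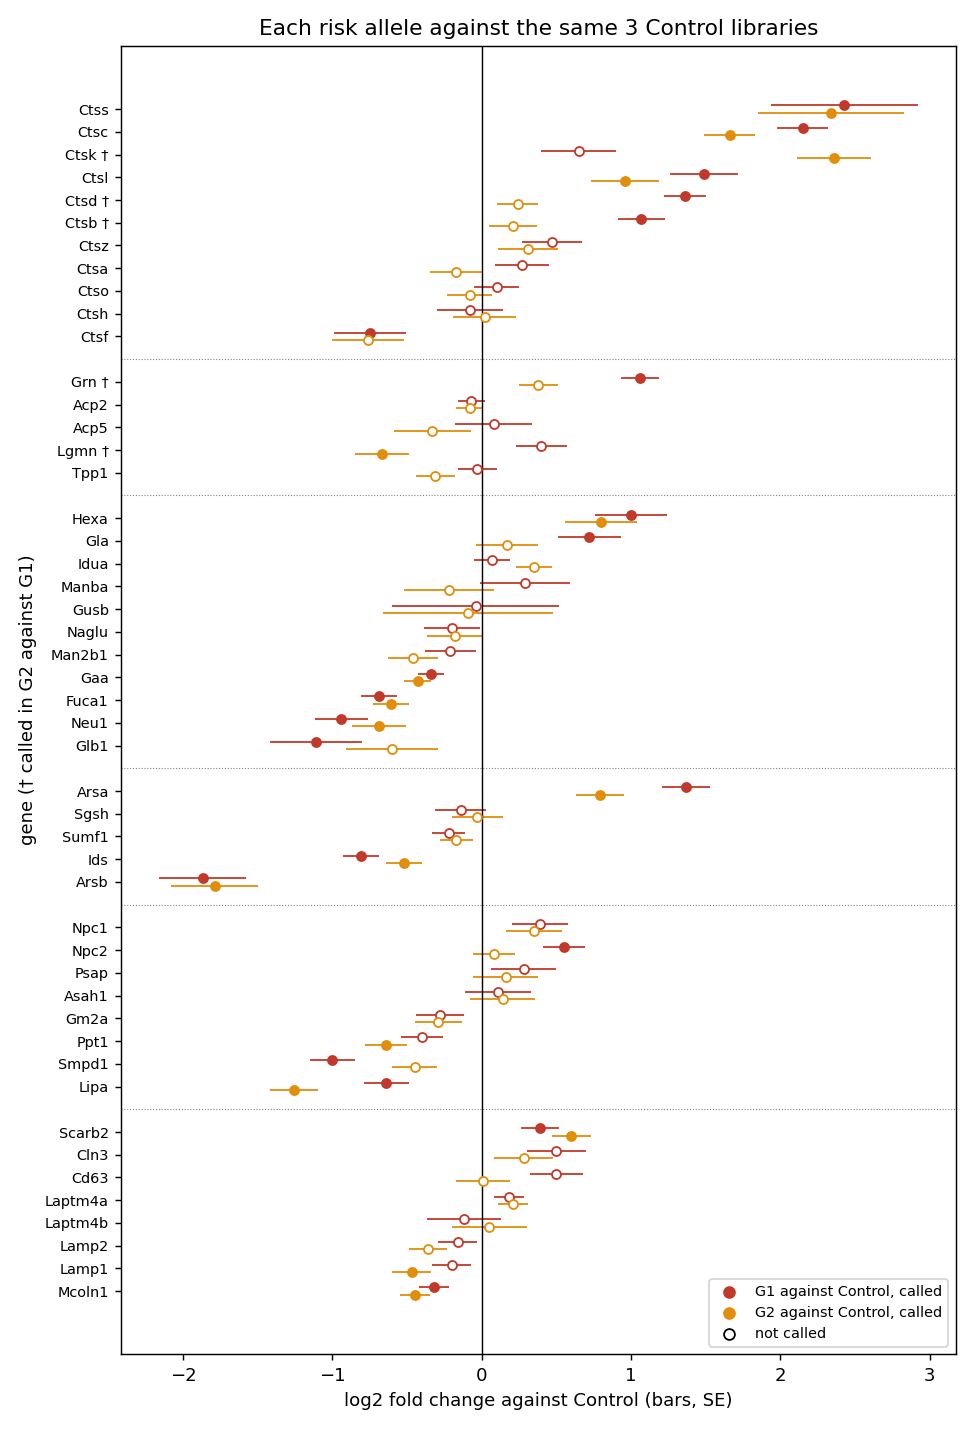
Log2 fold change of each of the 48 genes for G1 (red) and G2 (orange) against the same 3 Control libraries, with bars for the SE; filled points were called (adjusted p under 0.05) and open points were not, and a dagger marks the 5 genes called in G2 against G1. Ctsd, Ctsb, Grn and Lgmn lie further right for G1, Ctsk lies further right for G2, and for most of the other genes the SE bars of the alleles lie close together.

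The reference groups were compared with each other as a background. Their libraries did not group by label, as given above. The chi-square per gene was 124.8 between Control replicates 2 and 3 and 28.57 between wild type (single mutant) replicate 2 and Control replicate 3. Such differences within a label add to the spread, so a lack of calls does not show that the reference libraries were alike. Between wild type (single mutant) and Control, 0 of the 48 genes were called by edgeR (0% of all genes rose or fell), 0 by DESeq2 and 0 by limma-voom, and 1 had an unadjusted p under 0.05. That gene was Ctss, with a log2 fold change of -1.07 ± 0.46 (unadjusted p = 0.0443, adjusted p = 1.0), where Control replicate 3 (7.72 CPM) lay among the wild type (single mutant) libraries. The next lowest p-values were those of Asah1 (0.31 ± 0.20), Sumf1 (0.13 ± 0.10), Gla (-0.25 ± 0.19), Fuca1 (-0.14 ± 0.11) and Laptm4a (-0.11 ± 0.09). Asah1 held 86.7, 72.6 and 112 CPM in Control and 126, 123 and 85.1 in wild type (single mutant), Sumf1 64.5, 62.9 and 73.7 against 70.8, 80.4 and 69.4, and Gla 8.05, 7.06 and 5.89 against 4.76, 5.66 and 7.22. Laptm4a was at 378, 373 and 335 CPM in Control and at 324, 322 and 357 in wild type (single mutant). In each of these 6 genes the libraries of the reference groups overlapped. Except in Fuca1, they split across the labels. Wild type (single mutant) replicates 1 and 2 and Control replicate 3 lay apart from the other reference libraries without overlap. The part of this split in the differences between the reference groups was not tested.

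Other genes of the pathway, from lists chosen with earlier results known, were read in the same fit. Of 29 further hydrolases tested (30 listed), 3 rose and 6 fell with a median of -0.08, and on library totals alone 9 rose and 3 fell (median 0.18). The phospholipase genes Plbd1 (1.33 ± 0.26, adjusted p = 0.00444) and Pla2g15 (0.92 ± 0.16, 0.00264) rose, and the carboxypeptidase gene Cpq (-0.76 ± 0.13, 0.00265) fell. Of 30 further membrane proteins and transporters tested (31 listed), 7 rose and 11 fell, against 14 and 4 on library totals alone. The risers with the lowest p were Cd68 (2.53 ± 0.33, adjusted p = 0.000571), which is also a macrophage marker, and Litaf (1.58 ± 0.22, 0.000773), and the fallers were the iron transporter gene Slc11a2 (-0.83 ± 0.13, 0.00172) and the nucleoside transporter gene Slc29a3 (-0.92 ± 0.15, 0.00205).

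Of 23 genes for subunits and accessory proteins of the V-ATPase, 1 rose and 11 fell, with a median of -0.29. On library totals alone 3 rose and 7 fell, with a median of -0.02. Their summed level was 3849 to 4179 CPM in Control, 3880 to 4079 in wild type (single mutant), 3069 and 2924 in G1, and 3033 and 2849 in G2. Atp6v0a4, a subunit of kidney epithelia, fell by 1.07 ± 0.08 (adjusted p = 6.48e-05), from 319 to 353 CPM in Control to 186 and 181 in G1 and 129 and 141 in G2. Atp6v1a, the catalytic subunit, fell by 0.89 ± 0.10 (adjusted p = 0.000349), and Tcirg1, a subunit known from osteoclasts, was the one that rose (0.65 ± 0.21, 0.0401). These genes are also expressed by the intercalated cells of the collecting duct. Of 13 markers of the distal nephron and collecting duct, 6 fell and 0 rose. All 13 log2 fold changes were negative, from -3.33 to -0.05 with a median of -0.65. The sums were 3156 and 4819 CPM in G1, 4443 and 5865 in G2, and 5622 to 6586 in Control. Only G2 replicate 2 (5865) thus overlapped with Control. The list mixes segments, no sum for intercalated cells alone is given here, and the part of these cells was not tested. Atp6v1g3, itself a V-ATPase subunit gene, is on both lists. Umod, which gave 3184 CPM of the mean Control sum of 5949, differed by -0.05 ± 0.19, the smallest difference of that marker list. Slc12a1 differed by -0.65 ± 0.23 (adjusted p = 0.049).

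Of 11 genes listed as endogenous cathepsin inhibitors, 6 were tested and 5 of these rose, and none fell by edgeR, DESeq2 or limma-voom (0 at an unadjusted p under 0.05). The list is a broad one of cystatin and serpin genes, and it holds Serpinb9 and Serping1, whose main targets are other proteases. Taken by allele, 5 of the 6 rose with G1 and 2 with G2. Their sum was 467 to 589 CPM in Control, 465 to 578 in wild type (single mutant), 1131 and 1113 in G1, and 1129 and 819 in G2. Cstb, the gene of cystatin B, was at 69.5, 66.0 and 56.5 CPM in Control, 302 and 249 in G1, and 157 and 102 in G2 (log2 1.56 ± 0.16, adjusted p = 0.000188), and Serpinb6a rose by 1.23 ± 0.20 (0.00196). Of 16 genes for mannose 6-phosphate tagging and sorting, 2 rose, Gnptab (0.34 ± 0.10, adjusted p = 0.0226) and Ap1s1 (0.38 ± 0.11, 0.0226), and 4 fell, among them Ap1g1 (-0.67 ± 0.08, 0.000316) and Gga2 (-0.34 ± 0.07, 0.00729). On library totals alone 5 of them rose and 1 fell.

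Of 17 genes listed as transcription regulators of lysosomal genes, 1 rose and 2 fell, against 5 and 1 on library totals alone. The list is a broad one, and not all of its genes encode transcription factors. Tfe3, one of the factors that bind the E-box shown above, was at 29.2, 29.7 and 29.0 CPM in Control, 52.0 and 50.4 in G1, and 41.2 and 36.3 in G2. It rose by 0.60 ± 0.08 on the log2 scale (adjusted p = 0.000552). The 2 genes that fell, Fnip1 and Fnip2, encode folliculin-binding proteins and not transcription factors. They fell by 0.65 ± 0.07 (adjusted p = 0.000199) and 0.71 ± 0.20 (0.021). RNA levels say nothing on the location of transcription factors in the cell.

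**Figure D5:**
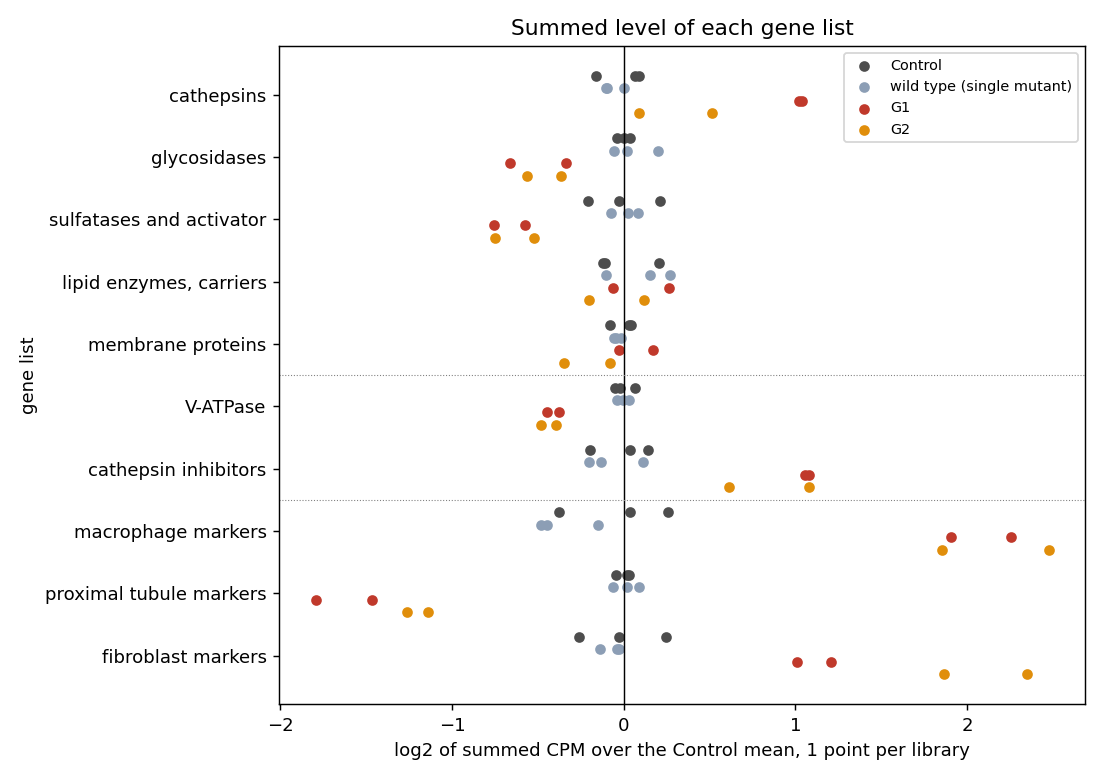
Summed level of 10 gene lists in each library, as log2 of the sum over its mean in the 3 Control libraries (x axis); 1 point is 1 library, coloured by group. Cathepsins, the genes listed as cathepsin inhibitors, macrophage markers and fibroblast markers lie to the right of Control in G1 and G2. For cathepsins the margin of G2 replicate 2 is very small (3041 CPM against 3032 in the highest Control library). Glycosidases, sulfatases, the V-ATPase and proximal tubule markers lie to the left on the TMM scale, and lipid genes and membrane proteins overlap Control in at least 1 allele.

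Markers of other cells are given as measured beside these results. Of 10 tubular injury markers 9 rose, with sums of 848 to 1337 CPM in Control, 20956 and 30114 in G1 and 5010 and 8755 in G2. Havcr1 rose by 6.01 ± 0.47 and Lcn2 by 6.26 ± 0.34. Of the neutrophil markers 5 were tested of 8 listed and all 5 rose, at sums of only 5.72 to 9.5 CPM with the risk alleles against 1.46 to 3.19 in Control; S100a8 and S100a9 reached at most 0.706 and 1.34 CPM. Of 11 markers of T, NK and B cells 5 rose (Cd3d by 2.0 ± 0.41, Cd3e by 1.78 ± 0.44), at sums of 14.2 to 29.9 CPM against 5.61 to 15.1. Of 8 endothelial markers 1, Kdr, fell (-1.01 ± 0.26, adjusted p = 0.014), while Pecam1 differed by -0.18 ± 0.20. The alleles differed here: 6 of the 8 fell with G1 (median -0.93), 0 were called with G2 (median 0.23), and 3 were higher in G2 than in G1 (median 1.09). Of 8 podocyte markers none was called by edgeR, DESeq2 or limma-voom and 0 had an unadjusted p under 0.05; Nphs1 differed by -0.87 ± 0.48. As a check of the labelled tissue, the podocyte markers summed to 204 to 553 CPM over the 10 libraries and the proximal tubule markers to 8430 to 31137.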

How the data were processed

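Kidney RNA was read in 10 libraries of single-end reads of 100 bases. For 46517 versioned Ensembl IDs the authors deposited raw read counts, made with CASAVA 1.8.2, FastQC, Trim Galore, STAR 2.4.1d, HTSeq 0.6.1 and the build GRCm38, per the submitters' processing notes. The annotation, the strand option and other settings were not given in the sources used here. RNeasy Mini is named in one place of the labels and miRNeasy in another, and extraction is said to have been done together. Symbols and coordinates came from GENCODE M21 (46005 IDs matched). Every value column was assigned to a labelled library, and no pair of libraries was alike within sampling noise (lowest chi-square per gene 28.57).

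Counts were tested with edgeR 4.0.16 in R 4.3.3: filterByExpr with a minimum count of 10, TMM scaling, and quasi-likelihood F tests from a model with 4 group means, fitted to the 10 libraries together so that the spread is pooled (common biological coefficient of variation 0.249). Benjamini-Hochberg adjustment ran over 17823 genes in each of 6 comparisons. The SE is the log2 fold change over the root of its F statistic. Alternatives used limma 3.58.1, DESeq2 1.42.0, other scalings and filters, other reference libraries, and each library left out. Titles within wild type (single mutant) differ, and an alternative took only the libraries of that group whose titles begin with G as reference. The script was tested on simulated data in which few genes changed, as many up as down. That test therefore does not bear on the choice of scaling. Tables and figures used Python 3.11.15, pandas 2.3.3 and matplotlib 3.10.9.

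Members, lists and motifs were chosen with earlier results of these data known. Values per library are given for the 3 members of each group with the lowest p against Control, members called against their group's direction, those with the 6 lowest p in G2 against G1 and in wild type (single mutant) against Control, and any called with opposite signs in G1 and G2. Of other lists, the 2 called genes with the lowest p in each direction, and of marker lists the first 2 genes, are named. Of the genes this rule names, 2 are not reported here.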

Additional observations from a re-analysis of the deposited data

Results flagged for a closer look

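In G2 against G1, the test of the difference between the alleles, 5 of the 48 genes passed the threshold. The log2 fold change was -1.12 for Ctsd, -0.86 for Ctsb, -1.07 for Lgmn, -0.67 for Grn and 1.71 for Ctsk. For Ctsd, Ctsb and Grn both G1 libraries lay above both G2 libraries and above all 6 reference libraries, for Lgmn both G2 libraries lay below the 8 others, and for Ctsk both G2 libraries lay above the 8 others. Each group holds 2 libraries.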

How the results depend on the processing

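Of the 22 genes called with the risk alleles against Control, 16 were called under all 18 alternatives, and of 396 refits 379 kept the direction and the call, 17 lost the call and 0 turned direction. The genes that lost it were Ctsf, Gaa, Ppt1 and Mcoln1 on library totals alone, and Glb1 and Lamp1 there and with libraries left out. Lamp1 also lost it with no filter beyond 1 count and in a fit of only the groups compared. Of the 30 genes called against wild type (single mutant), 14 lost the call in 67 of 540 refits, Ppt1 in 8 of its 18. With G1 11 of 21 and with G2 13 of 17 lost it under some alternative. On library totals alone, which move the median of all genes up by 0.28, 19 members rose and 6 fell against Control, 6 fell against wild type (single mutant), 21 rose and 5 fell with G1, and 13 rose and 4 fell with G2. A fit of only the groups compared gave 6 that fell with G2 and 0 that fell in G2 against G1, where DESeq2 gave 7. With each library left out in turn, 10 to 13 rose and 10 to 13 fell against Control, 11 to 15 and 10 to 16 against wild type (single mutant), and 0 and 0 between the reference groups. With G1, 7 to 13 rose and 3 to 10 fell, the lowest without G1 replicate 1 and without G1 replicate 2. With G2, 4 to 7 rose and 4 to 11 fell, the lowest without G2 replicate 1 and without G2 replicate 2. In G2 against G1, 0 to 2 rose: 0 without G1 replicate 1 or 2, and 2 without wild type (single mutant) replicate 2. There 0 to 8 fell: 0 without G1 replicate 2 or G2 replicate 2, 1 without G1 replicate 1, 2 without wild type (single mutant) replicate 1 or Control replicate 1, and 8 without G2 replicate 1. The Ctsk difference was lost without G1 replicate 1 or 2, that of Ctsd without G1 replicate 2 or G2 replicate 2, that of Lgmn without any of G1 replicates 1 and 2 and G2 replicate 2, and those of Ctsb and Grn without these 3 libraries, wild type (single mutant) replicate 1 or Control replicate 1. A lone library left in a group is assumed to vary like the other groups. The cause of these shifts was not tested. No paired analysis was possible because the labels give no replicate numbers that the groups share.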
